A study of Saccharomyces cerevisiae with 10 samples.

Results

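Transcript levels of the PRP22-OE strain, which carried extra PRP22, were set directly against those of the LSM5-OE strain, which carried extra LSM5. PRP22-OE and LSM5-OE were each grown as 2 cultures, so the difference between them rests on 4 of the 10 libraries of the series. Values of the 2 WT cultures are given only for orientation. The WT, TIF35-OE and UTP6-OE libraries also entered the estimate of the spread between cultures, on which the calls depend. Features were kept when they averaged at least 1 FPKM (fragments scaled to the length of the feature and to the depth of the library) over all 10 libraries, which left 5768 of 5824 features. All strains are haploid BY4741 yeast (Saccharomyces cerevisiae), collected in log phase at an OD600 of 0.4 from medium without uracil with 2% glucose. The BY4741 genome lacks LEU2, MET17, URA3 and part of HIS3. The added gene sat on a low-copy centromeric plasmid with URA3, under its own promoter and terminator, and the chromosomal copy stayed in place. Each strain goes back to a colony kept as a frozen stock, so the cultures of a strain share whatever that colony carried. The sources used here do not say in words whether the WT cultures for RNA held the empty plasmid. Those cultures did have 920 and 937 FPKM of URA3, which the plasmid carries and the BY4741 genome lacks.

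Both added genes act on mRNA. Prp22 is a DEAH-box helicase of the spliceosome that releases the spliced mRNA once the exons have been joined. Lsm5 is a subunit of the ring-shaped Lsm complexes, one of which binds the U6 RNA of the spliceosome in the nucleus and another of which promotes decapping and decay of mRNA in the cytoplasm. The comparison therefore asked what separates a strain with an extra splicing helicase from a strain with an extra subunit of the splicing and decay rings.

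The spacing of low FPKM values gave estimated depths of 13453481 to 16690470 fragments for the PRP22-OE, LSM5-OE and WT libraries. Estimated fragment lengths were 309 to 314 bases, apart from 282 bases in the second PRP22-OE culture. Strain markers matched a haploid of mating type a, since the a-cell receptor gene STE2 had 420 to 516 FPKM in these 6 libraries and the alpha-cell receptor gene STE3 had 13.8 to 17.3 FPKM. The plasmid marker URA3 had 725 and 625 FPKM in PRP22-OE, against 800 and 725 FPKM in LSM5-OE and 920 and 937 FPKM in WT. HIS3, part of which BY4741 lacks, was listed at 148 to 229 FPKM.

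In the direct comparison 278 of the 5768 features passed an adjusted p of 0.05, or 4.82%, and most of them were lower in PRP22-OE. The 42 features higher in PRP22-OE were 0.728% of those tested and the 236 lower features were 4.09%. Differences were small, with a median size of 0.46 on the log2 scale among the 278, and 27 features (0.468%) also differed by at least 1 in size. Of these 27, 1 was higher in PRP22-OE, PRP22 itself, and 26 were lower. In all 278 the PRP22-OE cultures did not overlap the LSM5-OE cultures. Over all features tested both PRP22-OE cultures lay above both LSM5-OE cultures in 15.1% and below them in 29.6%, and the median log2 difference was -0.04. Log2 differences here are PRP22-OE minus LSM5-OE on log2(FPKM + 0.5), tested with limma across the whole table. With 2 cultures against 2, a permutation of the 4 libraries alone cannot go below p = 0.333, so the calls rest on the spread pooled over 5 strains.

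The number of calls leaned on single cultures and on the scaling. It was 149 without the first PRP22-OE culture, 103 without the second, 134 without the first LSM5-OE culture and 235 without the second, and 41 when only the 4 libraries entered the fit. Scaling by the median of ratios gave 122 higher and 199 lower features, and a fit with voom on estimated fragments gave 142 higher and 311 lower, so the share of higher calls was 15.1% as deposited, 38.0% after rescaling and 31.3% with voom.

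**Figure D1:**
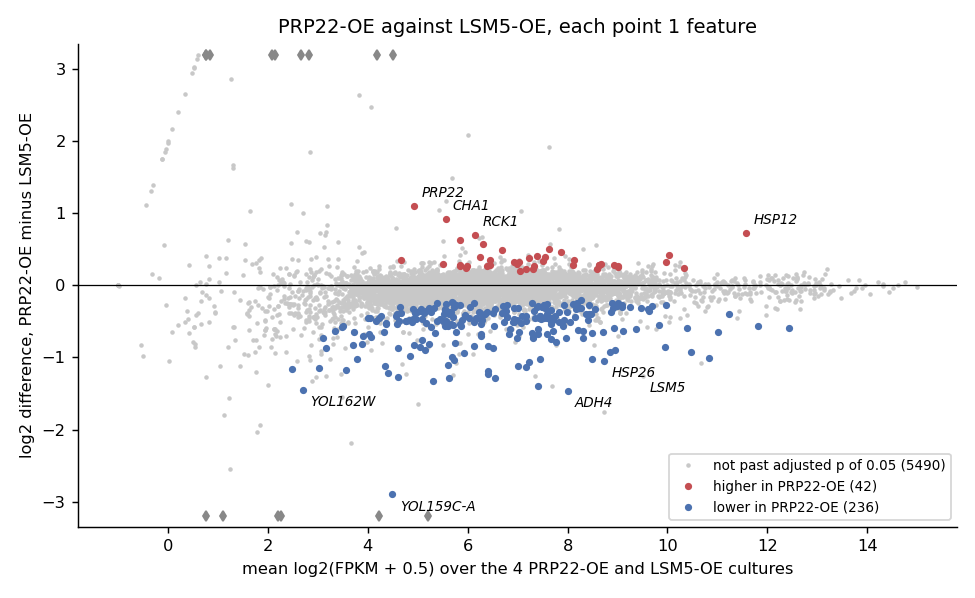
Log2 difference (PRP22-OE minus LSM5-OE, vertical) against the mean log2(FPKM + 0.5) of the 4 cultures (horizontal), with 1 point per feature; diamonds on the upper and lower edge are 15 features whose difference exceeds 3.2 in size. The 42 features higher in PRP22-OE (red) reach PRP22 at 1.10, and the 236 lower ones (blue) reach YOL159C-A at -2.90.

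The added genes came first. PRP22 (chromosome V, 178841 to 182278, plus strand) had 43.3 and 44.5 FPKM in PRP22-OE, against 19.0 and 21.5 FPKM in LSM5-OE and a mean of 20.4 ± 0.62 FPKM in WT (SD, n = 2). Both PRP22-OE cultures stood at about the same level, 2.17-fold above the LSM5-OE mean, and the LSM5-OE cultures lay around the WT ones. The log2 difference was 1.10 (SE 0.09, adjusted p = 0.000591), and PRP22 was called under all 14 alternative settings. LSM5 (chromosome V, 462585 to 462866, plus strand) had 399 and 553 FPKM in PRP22-OE, against 865 and 1456 FPKM in LSM5-OE and 268 and 312 FPKM in WT. The PRP22-OE cultures lay below the LSM5-OE cultures but also above both WT cultures. Its log2 difference of -1.26 (SE 0.31) missed the threshold, with an adjusted p of 0.0652. LSM5 is 282 bases long, shorter than most sequenced fragments, and its 2 LSM5-OE cultures were far apart.

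Neighbours of the added genes were read alongside. YER145C-A (chromosome V, 462386 to 462823, minus strand), an open reading frame that overlaps LSM5 on the other strand, had 83.2 and 111 FPKM in PRP22-OE, against 191 and 235 FPKM in LSM5-OE and 61.0 and 71.3 FPKM in WT. Its log2 difference of -1.14 passed the threshold, with an adjusted p of 0.0134. Whether counting used the strand is not given in the sources used here, so reads of LSM5 and of YER145C-A cannot be told apart. PRE1, HEM14, FTR1 and SCC4, which flank PRP22 or LSM5, were not called, with log2 differences of 0.19, 0.08, -0.09 and -0.25.

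The clearest group was sulfate assimilation and methionine synthesis. Yeast imports sulfate, activates it with ATP, reduces it to sulfide and joins the sulfide to a carbon chain to make homocysteine, methionine and cysteine. In BY4741 the gene of the joining step, MET17, is deleted, so the route is not complete in any of these strains. The genes of this route are switched on together by Met4, which is brought to promoters by the DNA-binding proteins Cbf1, Met31 and Met32. Of the 27 genes of the list, 13 were lower in PRP22-OE and none was higher, or 48.1% called against 4.82% of all features tested. The median log2 difference of the list was -0.45, against -0.04 over all features, and stayed between -0.45 and -0.40 over the 14 alternatives. In 23 of the 27 genes both PRP22-OE cultures lay below both LSM5-OE cultures.

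Uptake and activation came first in the route. SUL1, a high-affinity sulfate permease (chromosome II, 789235 to 791814), had 23.9 and 24.1 FPKM in PRP22-OE, against 44.6 and 43.4 FPKM in LSM5-OE and 52.9 and 53.2 FPKM in WT. Its cultures agreed closely within each strain, and the difference was -0.86 (SE 0.06, adjusted p = 0.000316). SUL2, the other sulfate permease, had 31.4 and 30.3 FPKM in PRP22-OE, against 47.1 and 45.9 FPKM in LSM5-OE and 51.8 and 51.9 FPKM in WT. MET3, the ATP sulfurylase that activates sulfate, had 131 and 115 FPKM in PRP22-OE, against 195 and 214 FPKM in LSM5-OE and 226 and 232 FPKM in WT. In each of these genes WT lay above LSM5-OE, and PRP22-OE lay lowest. MET14, the kinase of the next step, had 351 and 317 FPKM in PRP22-OE, against 636 and 626 FPKM in LSM5-OE and 743 and 663 FPKM in WT. It had the largest difference of the list, -0.92 (SE 0.07, adjusted p = 0.00054).

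Reduction to sulfide followed. MET16, the reductase that makes sulfite, had 112 and 129 FPKM in PRP22-OE, against 159 and 180 FPKM in LSM5-OE. MET5, a subunit of sulfite reductase, had 40.2 and 38.7 FPKM in PRP22-OE, against 55.8 and 55.6 FPKM in LSM5-OE. MET10, the other subunit, had 63.0 and 66.8 FPKM in PRP22-OE, against 87.4 and 93.8 FPKM in LSM5-OE. The PRP22-OE cultures lay below the LSM5-OE cultures in all 3 genes of this step, with log2 differences of -0.49, -0.49 and -0.48. MET1, which makes the siroheme cofactor of sulfite reductase, had 50.9 and 48.6 FPKM in PRP22-OE, against 69.0 and 69.8 FPKM in LSM5-OE.

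The remaining called members work around the route. MET2, which prepares the carbon chain, differed by -0.45, and CYS3, which makes cysteine, by -0.25. MET28, a transcription factor of the Met4 complex, differed by -0.52. JLP1, which frees sulfite from sulfonates, had 25.3 and 25.1 FPKM in PRP22-OE, against 40.5 and 55.7 FPKM in LSM5-OE, and differed by -0.90. MHT1, which makes methionine from S-methylmethionine, differed by -0.49. Among members that were not called, the methionine synthase gene MET6 had 962 and 914 FPKM in PRP22-OE, against 989 and 1021 FPKM in LSM5-OE, and the methionine permease gene MUP1 differed by -0.13. Called genes of the list numbered 9, 8, 9 and 9 when the first PRP22-OE, second PRP22-OE, first LSM5-OE or second LSM5-OE culture was left out, and 2 when only the 4 libraries were fitted.

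**Figure D2:**
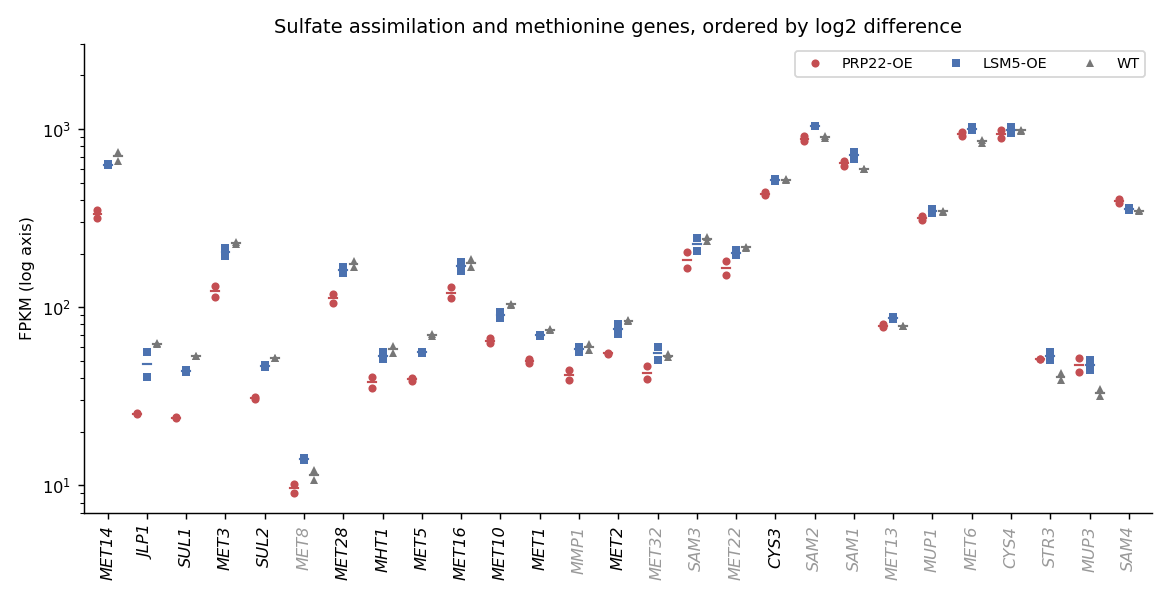
FPKM (log axis) of the 27 sulfate and methionine genes in each culture, with PRP22-OE (red circles), LSM5-OE (blue squares) and WT (grey triangles), a short bar at the mean of 2 cultures, and genes ordered by log2 difference; names of genes that were not called are grey. PRP22-OE cultures lie below both LSM5-OE cultures in 23 of the 27 genes, and MET14 shows the widest gap with 351 and 317 FPKM against 636 and 626 FPKM.

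The promoters of these genes carried the known binding letters of the pathway's regulators. In windows of 300 bases before the annotated start, read from the R64 genome of RefSeq on both strands, TGTGGC (the core of the Met31 and Met32 site) was found in 10 of the 13 called genes, in 7 of the 14 genes that were not called, and in 8.0% of 5711 windows of all tested genes. CACGTG, the letters shared by Cbf1 and Pho4, was found in 6 of the 13, in 2 of the 14, and in 3.6% of all windows. Both were present in 5 of the 13, in 1 of the 14 and in 0.4% of all windows. The windows of those 5 genes are shown because they are the called members with both letters. Each line gives bases 300 to 101 before the start, 5′ to 3′ on the strand of the gene, with both kinds of match in capitals (GCCACA is TGTGGC on the opposite strand, and adjoining matches run together).
MET14, chrXI:439486-439685, minus strand: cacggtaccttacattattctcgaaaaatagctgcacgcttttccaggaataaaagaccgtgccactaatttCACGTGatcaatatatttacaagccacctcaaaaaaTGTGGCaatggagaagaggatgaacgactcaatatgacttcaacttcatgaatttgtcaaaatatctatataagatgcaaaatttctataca
MET10, chrVI:213012-213211, plus strand: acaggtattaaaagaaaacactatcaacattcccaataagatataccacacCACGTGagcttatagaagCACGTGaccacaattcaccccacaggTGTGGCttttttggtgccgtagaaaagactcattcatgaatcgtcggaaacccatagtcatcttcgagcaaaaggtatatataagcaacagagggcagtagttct
MET16, chrXVI:877733-877932, minus strand: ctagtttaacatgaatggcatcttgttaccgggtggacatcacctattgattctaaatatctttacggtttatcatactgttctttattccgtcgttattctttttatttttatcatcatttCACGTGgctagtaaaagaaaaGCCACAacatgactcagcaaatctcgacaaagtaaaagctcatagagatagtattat
MET28, chrIX:384220-384419, minus strand: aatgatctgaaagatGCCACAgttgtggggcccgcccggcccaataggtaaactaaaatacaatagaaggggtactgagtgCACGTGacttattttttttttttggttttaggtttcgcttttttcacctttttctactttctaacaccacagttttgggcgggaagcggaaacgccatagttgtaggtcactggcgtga
CYS3, chrI:130499-130698, plus strand: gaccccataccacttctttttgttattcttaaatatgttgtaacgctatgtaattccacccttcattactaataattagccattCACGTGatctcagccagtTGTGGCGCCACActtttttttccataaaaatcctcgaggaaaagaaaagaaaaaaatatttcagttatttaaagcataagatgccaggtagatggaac

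In MET14 and MET10 the matches lay 192 to 249 bases before the start, and in MET16 they lay 178 and 157 bases before it. In CYS3, CACGTG began 216 bases before the start and the TGTGGC matches 198 and 192 bases before it. SUL1 and MET2 were called with neither set of letters in the window, so the letters did not divide called from other genes of the list. A match describes the letters only, and binding was not measured.

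Genes of the general stress response moved in both directions. The list holds genes that yeast raises under heat, oxidative stress and slow growth through the factors Msn2, Msn4 and Hsf1. Of its 28 genes, 4 were higher and 6 lower in PRP22-OE (35.7% called, against 4.82% of all features, which were 0.728% higher and 4.09% lower), with a median log2 difference of -0.11. CTT1, the cytosolic catalase (chromosome VII, 654634 to 656322), had 94.6 and 97.2 FPKM in PRP22-OE, against 63.9 and 64.0 FPKM in LSM5-OE and 41.9 and 45.8 FPKM in WT. The 3 strains did not overlap, and the difference was 0.58 (SE 0.06, adjusted p = 0.00211). HSP12, a membrane-protecting stress protein, had 4381 and 3531 FPKM in PRP22-OE, against 2571 and 2189 FPKM in LSM5-OE and 1408 and 1370 FPKM in WT. Its feature is 330 bases long, close to the fragment length. USV1, a transcription factor, and MSC1 were also higher, by 0.40 and 0.35. Called higher genes of the list numbered 1, 3, 1 and 3, and lower genes 4, 4, 6 and 6, without the first PRP22-OE, second PRP22-OE, first LSM5-OE or second LSM5-OE culture.

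The lower stress genes included protein chaperones. HSP26, a small heat shock protein (chromosome II, 382030 to 382674), had 317 and 277 FPKM in PRP22-OE, against 601 and 628 FPKM in LSM5-OE and 519 and 545 FPKM in WT. PRP22-OE lay below WT and LSM5-OE lay above WT in both cultures, and the difference was -1.05 (SE 0.09, adjusted p = 0.000595). GRE1, a stress-induced hydrophilic protein, had 48.9 and 61.4 FPKM in PRP22-OE, against 147 and 113 FPKM in LSM5-OE and 139 and 138 FPKM in WT. The LSM5-OE cultures lay on either side of WT. ALD3, an aldehyde dehydrogenase, GND2, a pentose phosphate enzyme, SSA4, an Hsp70, and HSP78, a mitochondrial disaggregase, were lower by 0.44, 0.47, 0.37 and 0.38 on the log2 scale. In the separate list of 22 chaperones and cochaperones 4 were lower and none higher (18.2%). Over all features 4.09% were called lower and 0.728% higher. The median of the list was -0.12, against -0.04 over all features. HSP82, the inducible Hsp90, had 247 and 239 FPKM in PRP22-OE, against 320 and 338 FPKM in LSM5-OE and 398 and 412 FPKM in WT. MDJ1, a mitochondrial Hsp40, FES1, an exchange factor of Hsp70, and CPR6, which works with Hsp90, were lower by 0.32, 0.36 and 0.30 on the log2 scale. No chaperone of this list was called without the second PRP22-OE culture and 1 was called without the first.

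**Figure D3:**
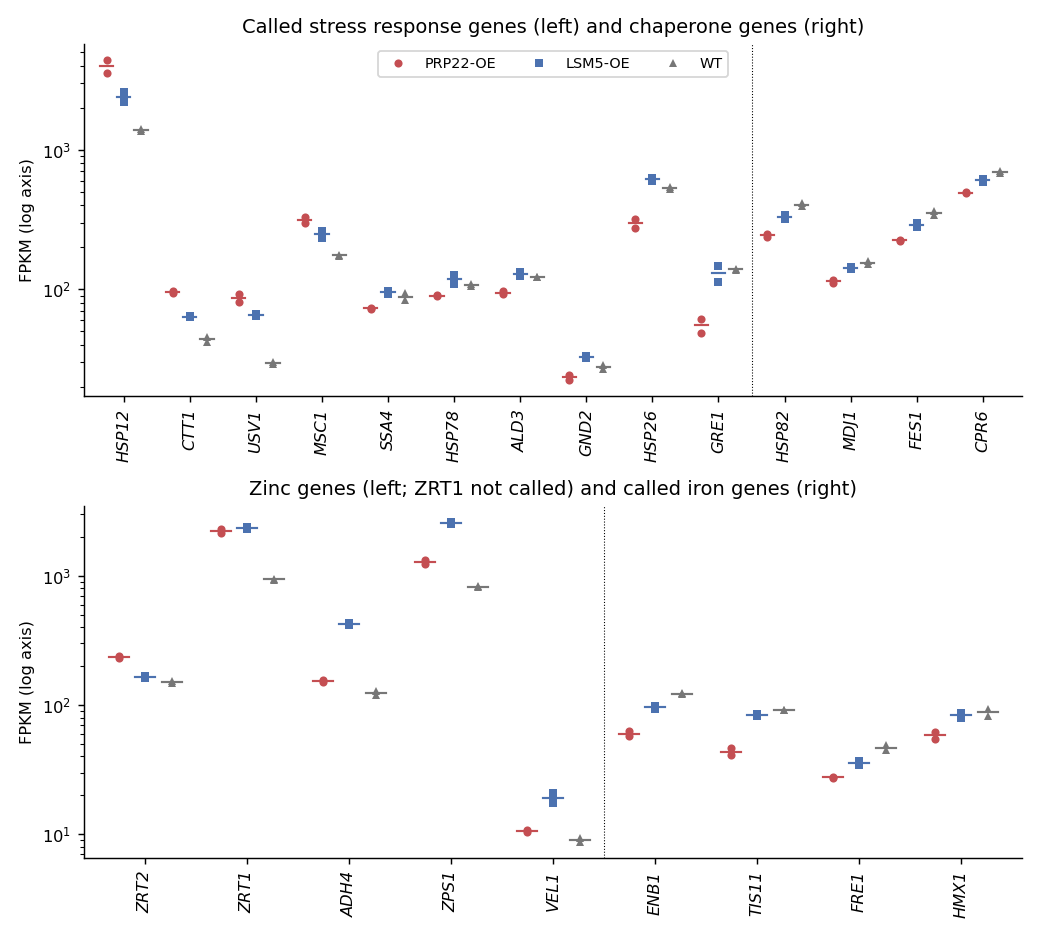
FPKM (log axis) per culture in PRP22-OE (red circles), LSM5-OE (blue squares) and WT (grey triangles), with a bar at the mean of 2 cultures; the upper panel holds the called stress genes and chaperones, the lower panel the zinc genes with ZRT1 and the called iron genes. HSP12, CTT1, USV1 and MSC1 stand highest in PRP22-OE, HSP26 stands lowest in PRP22-OE and highest in LSM5-OE, and ADH4, ZPS1 and VEL1 stand highest in LSM5-OE.

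The letters AGGGG, bound by Msn2 and Msn4, were found in the windows of all 4 higher stress genes, of 4 of the 6 lower ones, and of 22.3% of all windows. HSP26 and GRE1 had no match. Among all called genes the share was 28.6% of the higher and 37.2% of the lower ones. Windows of 2 higher genes and 1 lower gene are shown, because the letters were present in both directions. Each line gives bases 300 to 101 before the start on the strand of the gene, with AGGGG or its complement CCCCT in capitals.
CTT1 (higher), chrVII:654334-654533, plus strand: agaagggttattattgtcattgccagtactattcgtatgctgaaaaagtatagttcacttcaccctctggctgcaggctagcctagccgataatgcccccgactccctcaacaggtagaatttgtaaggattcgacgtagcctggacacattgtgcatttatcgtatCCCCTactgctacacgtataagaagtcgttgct
HSP12 (higher), chrVI:106956-107155, plus strand: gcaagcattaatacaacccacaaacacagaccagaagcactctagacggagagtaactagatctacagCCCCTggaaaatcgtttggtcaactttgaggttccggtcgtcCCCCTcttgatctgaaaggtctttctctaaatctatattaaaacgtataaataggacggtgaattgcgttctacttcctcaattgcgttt
HSP78 (lower), chrIV:974344-974543, minus strand: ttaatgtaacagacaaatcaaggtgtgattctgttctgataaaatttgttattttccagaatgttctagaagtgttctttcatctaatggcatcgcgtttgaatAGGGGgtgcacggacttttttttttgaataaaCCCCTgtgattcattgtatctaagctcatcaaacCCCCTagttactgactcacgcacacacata

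Of 21 genes of glycogen and trehalose metabolism, the storage carbohydrates of yeast, 3 were higher in PRP22-OE and none lower (14.3%, against 0.728% of all features called higher). The other members were not called, and the median log2 difference was 0.07, against -0.04 over all features. GSY1, a glycogen synthase, had 195 and 191 FPKM in PRP22-OE, against 143 and 146 FPKM in LSM5-OE and 54.3 and 53.2 FPKM in WT. Both strains were far above WT, and PRP22-OE was the higher by 0.41 (SE 0.05, adjusted p = 0.00501). PGM2, which supplies glucose-1-phosphate, had 221 and 204 FPKM in PRP22-OE, against 166 and 158 FPKM in LSM5-OE and 73.4 and 67.6 FPKM in WT. TPS2, which completes trehalose synthesis, had 309 and 298 FPKM in PRP22-OE, against 247 and 253 FPKM in LSM5-OE and 172 and 173 FPKM in WT. The list had 1 call when either PRP22-OE culture or the first LSM5-OE culture was left out, and 2 when the second LSM5-OE culture was.

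Zinc transporters and targets of Zap1, the factor that answers to low zinc, were called in both directions. Of 14 genes 1 was higher and 3 lower in PRP22-OE (28.6%, against 4.82% of all features), and the median log2 difference was close to 0. ADH4, an alcohol dehydrogenase (chromosome VII, 15159 to 16307), had 156 and 151 FPKM in PRP22-OE, against 432 and 417 FPKM in LSM5-OE and 119 and 129 FPKM in WT. The LSM5-OE cultures stood far above the other strains, and ADH4 had the largest downward difference among features of at least 400 bases, -1.47 (SE 0.06, adjusted p = 4.15e-05). ZPS1, a cell surface protein, had 1328 and 1235 FPKM in PRP22-OE, against 2622 and 2540 FPKM in LSM5-OE and 840 and 815 FPKM in WT. VEL1 had 10.4 and 10.7 FPKM in PRP22-OE, against 17.4 and 20.7 FPKM in LSM5-OE and 9.28 and 8.69 FPKM in WT. VEL1 has a near-identical relative, YOR387C, so its reads are uncertain.

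The 2 main zinc transporters are given beside these. ZRT2, the low-affinity transporter, had 238 and 232 FPKM in PRP22-OE, against 169 and 161 FPKM in LSM5-OE and 153 and 147 FPKM in WT, a difference of 0.51 (SE 0.05, adjusted p = 0.00111). ZRT1, the high-affinity transporter, had 2297 and 2140 FPKM in PRP22-OE, against 2390 and 2294 FPKM in LSM5-OE and 936 and 950 FPKM in WT. Its cultures overlapped between the strains, it was not called, and in both strains it lay well above WT. The full Zap1 site, the zinc-responsive element, was found in 6 of 5711 windows, among them that of ZRT1, and in none of the 4 called zinc genes.

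Of 26 iron and copper uptake genes 4 were lower in PRP22-OE and none higher (15.4%, against 4.09% of all features called lower), with a median log2 difference of -0.19. TIS11, which directs decay of mRNAs for iron-using proteins, had 46.3 and 40.9 FPKM in PRP22-OE, against 84.6 and 82.4 FPKM in LSM5-OE and 91.0 and 92.0 FPKM in WT. ENB1, a siderophore transporter, had 62.8 and 57.5 FPKM in PRP22-OE, against 98.4 and 93.7 FPKM in LSM5-OE and 123 and 122 FPKM in WT. FRE1, an iron and copper reductase, and HMX1, a haem oxygenase, were lower by 0.37 and 0.50 on the log2 scale. Of 23 phosphate genes 2 were lower (8.7%). PHO89, a phosphate transporter, had 9.02 and 9.55 FPKM in PRP22-OE, against 16.7 and 17.1 FPKM in LSM5-OE and 31.7 and 26.3 FPKM in WT. PHO84, the high-affinity transporter, was lower by 0.26 on the log2 scale. No phosphate gene was called when either PRP22-OE culture was left out, and 2 iron genes were called without the second PRP22-OE or the first LSM5-OE culture.

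Outside these groups the largest upward differences were in a mixed set of genes. CHA1, which breaks down serine and threonine (chromosome III, 15798 to 16880), had 64.6 and 64.1 FPKM in PRP22-OE, against 30.2 and 37.5 FPKM in LSM5-OE and 27.0 and 35.0 FPKM in WT. LSM5-OE overlapped WT and PRP22-OE stood above both, with a difference of 0.93 (SE 0.13, adjusted p = 0.00808). RCK1, a protein kinase of the oxidative stress response, had 89.3 and 90.2 FPKM in PRP22-OE, against 55.0 and 55.3 FPKM in LSM5-OE and 19.7 and 23.4 FPKM in WT. CIN5, a transcription factor of salt and drug tolerance, had 71.4 and 71.7 FPKM in PRP22-OE, against 43.5 and 48.5 FPKM in LSM5-OE and 43.4 and 42.5 FPKM in WT. RIB4, which acts in riboflavin synthesis, had 1237 and 1183 FPKM in PRP22-OE, against 914 and 885 FPKM in LSM5-OE and 1068 and 1032 FPKM in WT. Here WT lay between the strains, and both strains differed from it, with adjusted p of 0.0294 for PRP22-OE and 0.0407 for LSM5-OE. HSP31, a methylglyoxal-detoxifying protein, and FMP48, a mitochondrial kinase, were higher by 0.47 and 0.49.

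The largest downward differences were also in a mixed set of genes. DFP3, of the DUP240 family (chromosome III, 126011 to 126730), had 106 and 103 FPKM in PRP22-OE, against 269 and 283 FPKM in LSM5-OE and 431 and 428 FPKM in WT. RTA1, linked to resistance to aminocholesterol, had 24.8 and 24.1 FPKM in PRP22-OE, against 62.5 and 62.0 FPKM in LSM5-OE and 110 and 103 FPKM in WT. Both genes formed the same staircase, with WT highest, LSM5-OE between and PRP22-OE lowest. PUG1, which takes part in porphyrin uptake, had 30.2 and 31.7 FPKM in PRP22-OE, against 80.5 and 71.5 FPKM in LSM5-OE and 101 and 88.7 FPKM in WT. SEO1, a permease related to the allantoate transporter, had 8.15 and 6.63 FPKM in PRP22-OE, against 17.3 and 17.3 FPKM in LSM5-OE. OSW2, a spore wall gene, had 12.8 and 14.2 FPKM in PRP22-OE, against 28.2 and 35.9 FPKM in LSM5-OE and 44.9 and 45.5 FPKM in WT. YPR064W, THI13, YOL162W and YOL163W completed the set at -1.15, -1.16, -1.45 and -1.28, with GRE1, ADH4 and YER145C-A as given above.

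**Figure D4:**
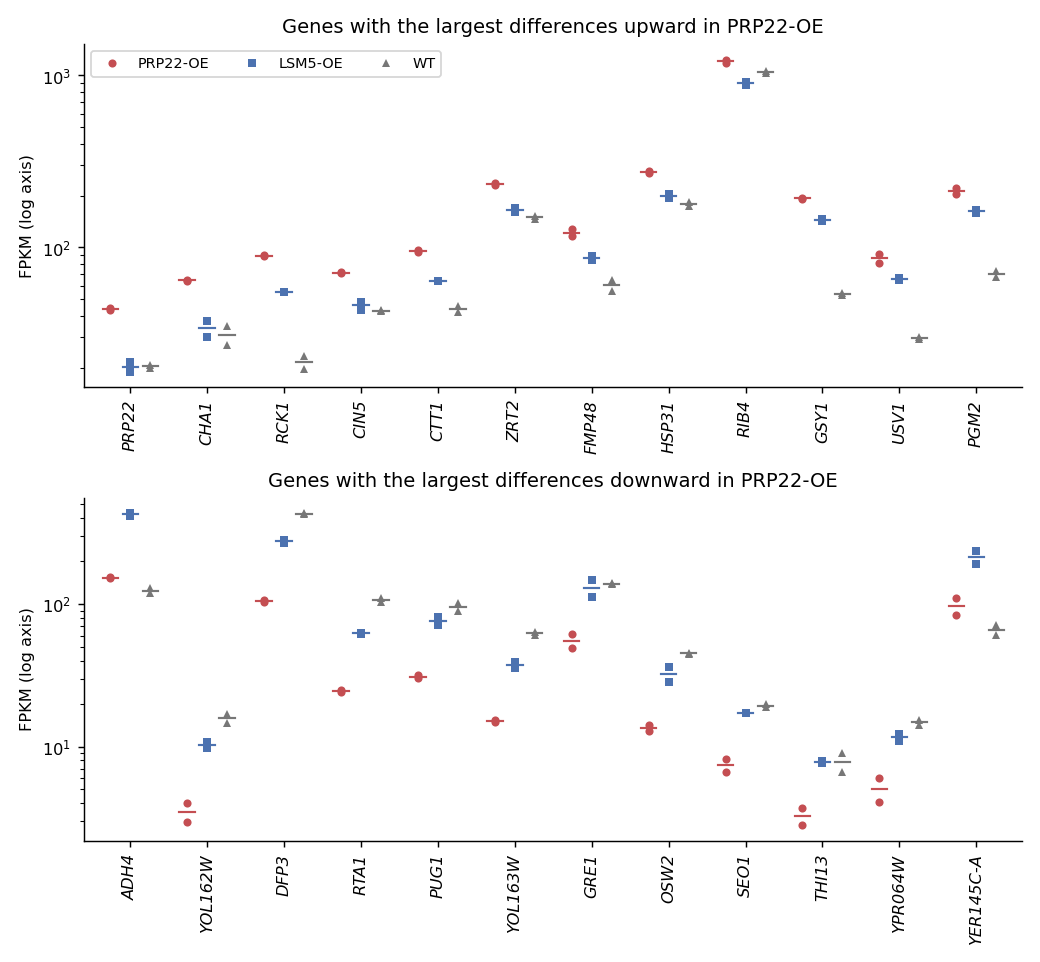
FPKM (log axis) per culture of the 12 genes with the largest upward and the 12 with the largest downward differences, in PRP22-OE (red circles), LSM5-OE (blue squares) and WT (grey triangles), with a bar at the mean of 2 cultures. PRP22-OE and LSM5-OE cultures do not overlap in any of the 24 genes, and ADH4 and YER145C-A are highest in LSM5-OE while most of the other lower genes are highest in WT.

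Short features were kept apart, because their FPKM depends most on fragment length. Of 476 tested features under 400 bases, 1 was higher and 13 were lower in PRP22-OE. Of all 5768 features 42 (0.728%) were higher and 236 (4.09%) lower, so short features were called less often than the whole. YOL159C-A, with 273 bases, had 6.14 and 9.72 FPKM in PRP22-OE, against 49.7 and 74.8 FPKM in LSM5-OE and 33.4 and 38.9 FPKM in WT. YOL014W had 62.1 and 57.3 FPKM in PRP22-OE, against 147 and 144 FPKM in LSM5-OE and 268 and 265 FPKM in WT. YDL009C and ROQ1, which reprogrammes a ubiquitin ligase under stress, were lower by 1.18 and 1.06 on the log2 scale. With the estimated fragment length as a covariate the count over all features was 221 instead of 278.

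Vitamin and amino acid genes gave smaller groups. Of 20 thiamine and vitamin B6 genes 4 were lower in PRP22-OE and none higher (20%, against 4.09% of all features called lower), with a median of -0.29. THI4, which builds the thiazole of thiamine, had 14.6 and 12.2 FPKM in PRP22-OE, against 31.7 and 27.4 FPKM in LSM5-OE and 36.01 and 37.75 FPKM in WT. SNZ1, of vitamin B6 synthesis, had 294 and 280 FPKM in PRP22-OE, against 456 and 452 FPKM in LSM5-OE and 489 and 487 FPKM in WT. THI13 and SNZ2 were lower by 1.16 and 0.56 on the log2 scale, and each has near-identical copies in the genome, so their reads are uncertain. Of 51 amino acid genes 5 were higher and 3 lower (15.7% called, against 4.82% of all features). Among the higher ones ARG1, LYS20, HIS4 and ASN1, of arginine, lysine, histidine and asparagine synthesis, differed by 0.29, 0.28, 0.28 and 0.22. SER3, which starts serine synthesis, was lower, with 261 and 246 FPKM in PRP22-OE, against 385 and 399 FPKM in LSM5-OE and 453 and 461 FPKM in WT. BAT2, a branched-chain transaminase, and GDH3, a glutamate dehydrogenase, were lower by 0.39 and 0.39 on the log2 scale. The Gcn4 letters TGACTC were in 21.4% of the windows of the higher genes, in 7.7% of those of the lower genes and in 7.9% of all windows. Only 1 higher amino acid gene was called when any of the 4 cultures was left out.

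Nucleotide synthesis gave few calls. ADE17, of purine synthesis, had 577 and 555 FPKM in PRP22-OE, against 467 and 472 FPKM in LSM5-OE and 247 and 244 FPKM in WT, and was the 1 called gene of 19, or 5.26% against 4.82% of all features. URA2, which starts pyrimidine synthesis, had 137 and 136 FPKM in PRP22-OE, against 108 and 110 FPKM in LSM5-OE and 127 and 126 FPKM in WT. URA1, of the same route, was higher by 0.24, so that 2 of 11 pyrimidine genes were called (18.2%).

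Central carbon metabolism gave few calls, all lower, as were most calls over all features (4.09% lower and 0.728% higher). CIT2, the peroxisomal citrate synthase, had 566 and 508 FPKM in PRP22-OE, against 843 and 783 FPKM in LSM5-OE and 1174 and 1151 FPKM in WT. CIT3, a minor mitochondrial citrate synthase, was the other of 2 called among 19 genes of the TCA and glyoxylate cycles and gluconeogenesis (10.5%), and differed by -0.64. TDH1, a form of glyceraldehyde-3-phosphate dehydrogenase, had 1749 and 1544 FPKM in PRP22-OE, against 2634 and 2536 FPKM in LSM5-OE and 2192 and 2218 FPKM in WT. PDC6, a minor pyruvate decarboxylase, was the other of 2 called among 20 glycolysis and fermentation genes (10%), and differed by -0.87. HXT5, a hexose transporter of slow growth, had 39.8 and 40.7 FPKM in PRP22-OE, against 76.5 and 65.3 FPKM in LSM5-OE and 81.1 and 77.9 FPKM in WT, and was the 1 called gene of 23 hexose genes (4.35%). Of 23 genes under nitrogen catabolite repression 2 were called (8.7%), and CPS1, a vacuolar peptidase, and MEP1, an ammonium permease, were lower by 0.45 and 0.39 on the log2 scale.

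GSC2, an inducible glucan synthase (chromosome VII, 548264 to 553951), had 69.0 and 65.4 FPKM in PRP22-OE, against 121 and 125 FPKM in LSM5-OE and 154 and 154 FPKM in WT. HSP150 and PIR3, both cell wall proteins, were lower by 0.40 and 0.51 on the log2 scale, which made 3 of 25 cell wall genes (12%, against 4.09% of all features called lower). Ty features, which are repeated and share reads between copies, gave 5 lower and none higher of 49 (10.2%), with a median of -0.26. YNL284C-B had 33.5 and 35.8 FPKM in PRP22-OE, against 46.1 and 52.5 FPKM in LSM5-OE and 86.8 and 85.6 FPKM in WT. No Ty feature was called without the first PRP22-OE culture, 1 without the second, and 18 were called with voom.

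Ribosome assembly factors, which act on rRNA in the nucleolus, sat slightly above the rest with few calls. The median log2 difference was 0.16 over 50 factors of the large subunit and 0.12 over 44 members of the small subunit processome. Both PRP22-OE cultures lay above both LSM5-OE cultures in 38 of the 50 and in 29 of the 44, against 15.1% of all features. NOC2, of large subunit export, had 154 and 156 FPKM in PRP22-OE, against 129 and 135 FPKM in LSM5-OE and 144 and 151 FPKM in WT. UTP20, of the processome, had 28.3 and 27.9 FPKM in PRP22-OE, against 20.8 and 23.1 FPKM in LSM5-OE and 26.7 and 26.8 FPKM in WT. These were the only calls, 1 in each list (2% and 2.27%, against 4.82% of all features). Without the second LSM5-OE culture 11 and 6 genes of the large and small subunit lists were called, without any 1 of the other 3 cultures none, and after rescaling by the median of ratios 13 and 7.

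The machinery to which the added genes belong gave no calls, where 4.82% of all features were called. At that share a list of this size can hold none, so the absence was not read as a result. None of 19 U1, 11 U2, 15 tri-snRNP and 26 Prp19-complex and step-factor genes was called, nor any of the 7 other spliceosomal helicases, whose median log2 difference was 0.02. PRP43, the helicase that takes the spliceosome apart after Prp22 has acted, had 152 and 164 FPKM in PRP22-OE, against 139 and 151 FPKM in LSM5-OE. PRP16, the helicase of the preceding step, had 25.4 and 25.6 FPKM in PRP22-OE, against 24.8 and 25.3 FPKM in LSM5-OE. For PRP43 the lower PRP22-OE culture and the higher LSM5-OE culture lay side by side, and the difference of 0.12 was not called. The other 7 genes of the Lsm rings were not called either. LSM1, found only in the cytoplasmic ring, had 310 and 341 FPKM in PRP22-OE, against 308 and 335 FPKM in LSM5-OE. LSM8, found only in the nuclear ring, had 84.8 and 92.5 FPKM in PRP22-OE, against 100 and 127 FPKM in LSM5-OE. None of 9 decapping and 20 deadenylation and surveillance genes was called, with medians of 0.04 and 0.04. Over the 14 alternatives no setting called more than 2 genes in any of these 8 lists, and rescaling by the median of ratios called 1 helicase, 1 Lsm gene and 1 deadenylation or surveillance gene as higher.

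Of 173 intron-containing genes outside the cytosolic ribosome, 1 was higher and 6 were lower in PRP22-OE, or 4.05%, against 4.82% of all features, and the difference between these shares was not tested. None of the 88 intron-containing ribosomal protein genes was called. FPKM over whole features do not separate spliced from unspliced RNA, so splicing itself was not measured. DBP2, an RNA helicase, had 582 and 547 FPKM in PRP22-OE, against 476 and 471 FPKM in LSM5-OE and 483 and 478 FPKM in WT. PAL2 had 248 and 232 FPKM in PRP22-OE, against 363 and 372 FPKM in LSM5-OE and 385 and 390 FPKM in WT. HAC1, the factor of the unfolded protein response, had 548 and 549 FPKM in PRP22-OE, against 703 and 651 FPKM in LSM5-OE and 609 and 627 FPKM in WT. YDL012C, SCS22 and LDS2 were lower by 0.89, 0.36 and 0.45 on the log2 scale.

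The starts of these introns are shown because Prp22 and the U6 RNA both act at splice sites. Each line gives the first 20 bases of the intron, 5′ to 3′, with the first 6 in capitals, where GTATGT is the usual yeast 5′ splice site.
DBP2 (higher), chrXIV:414912-415913, plus strand: GTATGTtaaaattttctcca
PAL2 (lower), chrVIII:298361-298484, minus strand: GTATGTgtagctccactccc
SCS22 (lower), chrII:47059-47146, minus strand: GTATGTttgacgagaattgc
LDS2 (lower), chrXV:242442-242504, minus strand: GTATGTtgatgttccaataa
OSW2 (lower), chrXII:250861-250947, minus strand: GTATGGcaaagaagtttaag
YDL012C (lower), chrIV:431387-431472, minus strand: GTACGTtaattttacaagtt
HAC1 (lower), chrVI:75840-76091, plus strand: CCGTGAttacgatgaccagg

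GTATGT opened 4 of these 7 introns (57.1%), against 72.9% of the 166 introns of genes that were not called. The branch letters TACTAAC were within 5 of the 7 (71.4%), against 77.7% of the 166. The HAC1 intron holds neither, and it is known to be removed by Ire1 and tRNA ligase outside the spliceosome. It counts among the 7 and lowers both of their shares. The shares therefore do not compare spliceosomal introns alone, and their differences from the 166 were not tested. Median intron lengths were 88 and 97 bases.

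The remaining lists held at most 1 call each. Over all features 4.82% were called, 0.728% higher and 4.09% lower. Of 131 cytosolic and 67 mitochondrial ribosomal protein genes, 1 each was lower (0.763% and 1.49%), RPL15B by 0.45 and MRP8 by 0.27 on the log2 scale. RPL15B has a near-identical paralogue, RPL15A, so its reads are uncertain. Of 34 proteasome genes, RPN10, a ubiquitin receptor, was lower by 0.28 on the log2 scale. No gene was called among 23 mating, 15 daughter cell, 11 histone, 13 cyclin, 36 respiratory chain, 23 ergosterol, 13 PAU and 12 COS genes. At the share over all features, lists of these sizes can hold none. The PAU genes, all under 400 bases, had a median log2 difference of -0.47, against -0.04 over all features. That median ran from -0.73 to 0.03 over 12 alternatives. Both PRP22-OE cultures lay below both LSM5-OE cultures in 3 of the 13 PAU genes and above them in 1.

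**Figure D5:**
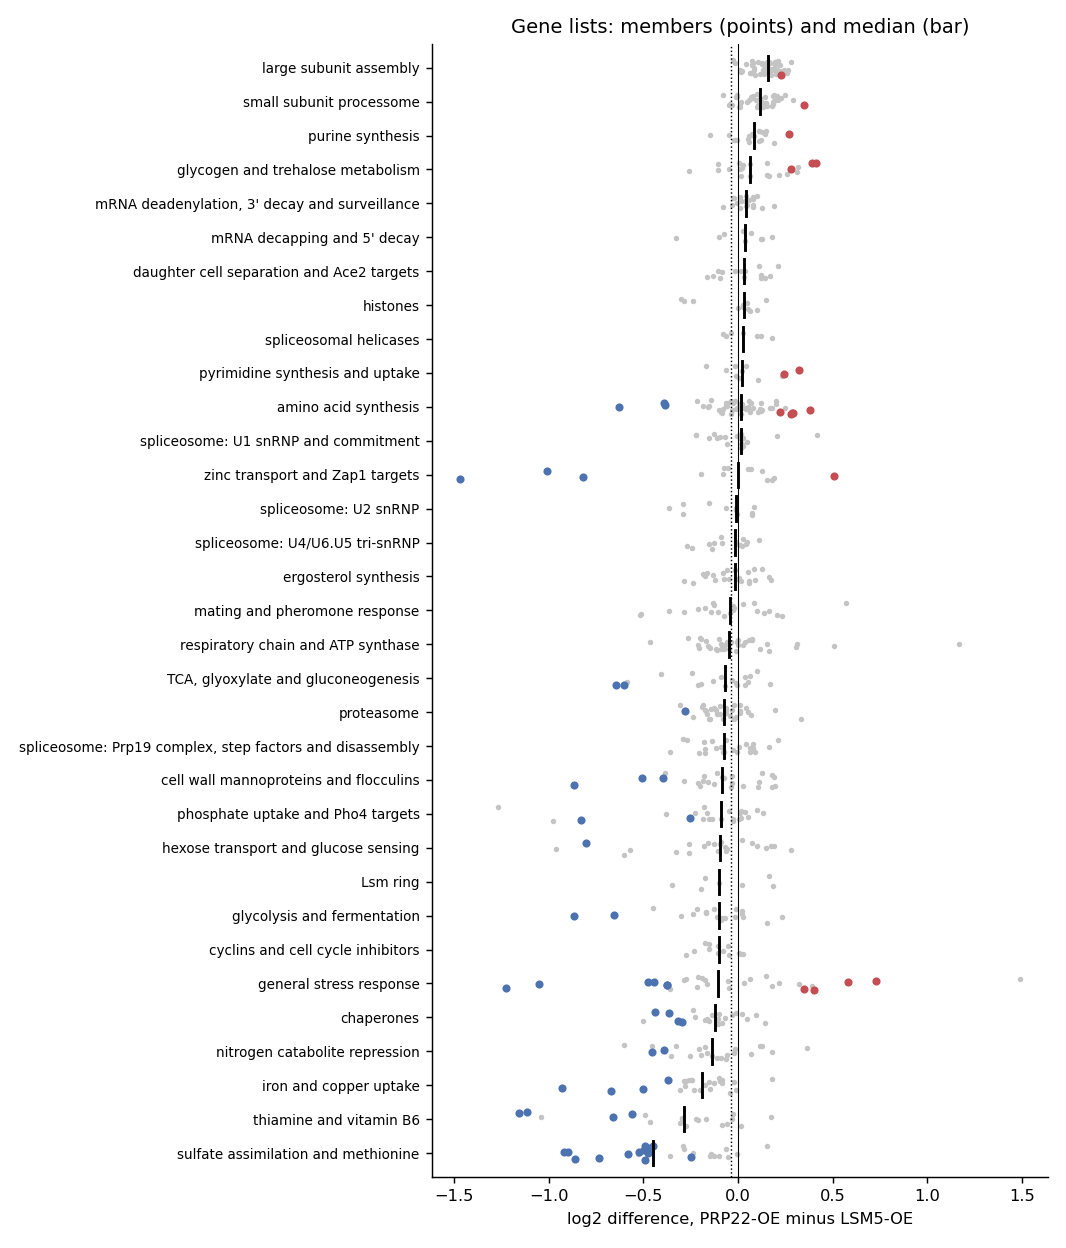
Log2 difference (PRP22-OE minus LSM5-OE, horizontal) of each gene in 33 lists, with genes higher in PRP22-OE in red, lower in blue, not called in grey, the list median as a black bar and the median of all features as a dotted line. Ribosomal protein, Ty, intron, PAU and COS lists are not drawn; of the lists drawn, sulfate and methionine has the lowest median, -0.45, with 13 blue points, and large subunit assembly the highest, 0.16.

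Lower genes were more often near chromosome ends. Within 25000 bases of an end lay 24 of 234 lower genes with a position (10.3%), 2 of 42 higher genes (4.8%) and 283 of 5720 tested genes (4.9%). The window was chosen after the values were seen, and no test was made. The left end of chromosome XV held 5 called features within 25000 bases. From the end inward they were BDS1, a sulfatase (-0.46), YOL163W (-1.28), YOL162W (-1.45), YOL159C-A (-2.90) and ENB1 (-0.67). YOL163W, at 9597 to 10106, had 14.9 and 15.4 FPKM in PRP22-OE, against 39.2 and 35.8 FPKM in LSM5-OE and 63.9 and 60.9 FPKM in WT. YOL162W, at 10119 to 10766, had 3.99 and 2.94 FPKM in PRP22-OE, against 9.75 and 10.7 FPKM in LSM5-OE and 14.6 and 17.0 FPKM in WT. YOL160W and CSS3, which lie among them, and IMA2, which lies just inward of ENB1, were not called and differed by -0.94, -0.22 and -0.39. AAD15, at 1647 to 2078 and so nearer the end than BDS1, was not called either and differed by -0.535. With the 5 called features these were all that were tested there, and over all features 4.82% were called. No whole chromosome stood apart, with medians from -0.07 to -0.03 over the 16 chromosomes.

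WT showed on which side each strain departed. Among the 236 features lower in PRP22-OE, the WT mean lay above both strain means in 172, between them in 58 and below both in 6. It was nearer to LSM5-OE in 224 of the 236 (94.9%), against 62.3% of all features. Among the 42 features higher in PRP22-OE, the WT mean lay below both strain means in 29 and between them in 13, and was nearer to LSM5-OE in 32 (76.2%). These shares are descriptions, because the WT cultures serve for both strains and their closeness to either was not tested.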

How the data were processed

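RNA of 2 cultures per strain was sequenced as 150 base paired-end reads. The deposited values are FPKM made by the authors. The study's methods name HISAT2 and featureCounts, the submitters' processing notes name STAR, RSEM, edgeR and limma without a role, so which program produced these FPKM is not given in the sources used here. A second deposited table, named as raw, held the same 58240 values, so no counts were used. Values were taken as log2(FPKM + 0.5), features averaging 1 FPKM or more over 10 libraries were kept, and limma 3.58.1 (R 4.3.3; lmFit, eBayes with trend) was fitted to all 10 libraries with 1 term per strain and Benjamini-Hochberg adjustment over 5768 features. A feature was called at an adjusted p of 0.05. A fold change on this scale understates the change of low genes. The study's methods describe the 2 cultures as independent. The p-values measure the spread between such cultures of a stock, and not between separate colonies of a strain. Fragments per library were estimated from the spacing of FPKM values up to 4 in features of 450 to 2500 bases, where 75 to 87.6% of values fell within 0.15 of a whole fragment. Promoter windows and introns came from the R64 genome and annotation of RefSeq, which matched 5775 of 5824 features by name.

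Genes were named by rule: the added genes and their neighbours, the 12 largest calls in each direction with at least 400 bases and values above 0 in all 4 libraries, up to 4 called members of each list by adjusted p, and up to 4 called short features. A gene that the rule names is not reported here. Beyond the rule, further called members of the sulfate, stress, amino acid and intron lists and BDS1 were named after their values were seen, as were uncalled examples and the genes under other observations. The comparison, lists and motifs were chosen with earlier results of these data known. On simulated data with independent noise and 200 features changed by 1 on the log2 scale, the fit for PRP22-OE minus LSM5-OE recovered 91.5%. The median size of the real calls was 0.461, and recovery of changes that small was not simulated. Alternatives were other pseudocounts and filters, rescaling, fewer libraries, a replicate block, a fragment length term and voom.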

Additional observations from a re-analysis of the deposited data

Results flagged for a closer look

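In 49 called features the strains lay on opposite sides of WT, with both PRP22-OE cultures beyond both WT cultures one way and both LSM5-OE cultures beyond them the other way. Of these, 12 were higher and 37 lower in PRP22-OE. This order of cultures was not counted over all features, so the 49 have no background share. By means alone, WT lay between the strains in 1405 of all 5768 features. The same held for 13 of the 42 called higher and 58 of the 236 called lower. Both strains passed the threshold against WT in 1 of the 49, RIB4. Log2 differences below are PRP22-OE minus LSM5-OE, all called by the limma fit, which is the test of the difference between the strains' departures from the shared WT cultures.

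Of the 49, the 18 that are also named by the rule or elsewhere in the text are given here. Higher in PRP22-OE and lower in LSM5-OE than WT were RIB4 at 0.43, UTP20 at 0.35, URA2 at 0.32, MTR4 at 0.28, DBP2 at 0.25, URA1 at 0.24, NOC2 at 0.23 and ASN1 at 0.22. Lower in PRP22-OE and higher in LSM5-OE than WT were YOL159C-A at -2.90, HSP26 at -1.05, TDH1 at -0.65, SNZ2 at -0.56, GND2 at -0.47, ALD3 at -0.44, HSP78 at -0.38, SCS22 at -0.36, HAC1 at -0.30 and MRP8 at -0.27.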

How the results depend on the processing

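The count of 278 called features was 41 with only the PRP22-OE and LSM5-OE libraries, 453 with voom on estimated fragments, and 103 to 235 when single cultures were left out. The 15.1% share of higher calls was 7.32% with only those libraries, 31.3% with voom, 38.0% after rescaling, and 6.72 to 27.2% without single cultures. Fitting features of at least 400 bases gave 402 calls. Calls of at least 1 in size numbered 27, and 18 to 28 under the alternatives.

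Of 107 called genes named by the rule or in the text none changed direction under any of the 14 alternatives. All 107 stayed called under the other pseudocounts and filters on low values, 101 after rescaling, 91 with a fragment length term, 90 with a replicate block, 20 with only the 4 libraries and 54 to 71 without single cultures.

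The shared culture numbers were not taken to pair the samples, since the labels tie them to no shared source. Culture differences of PRP22-OE and LSM5-OE correlated at 0.202 across 5245 features, the highest of any pair of strains, and the lowest was -0.236. A replicate block gave 212 calls. Depth per culture was estimated, so low genes carry an uncertain counting error.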

Other observations

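Several called genes that follow calcium signalling in yeast were lower in PRP22-OE. They belonged to no list, were picked after their values were seen, and were not tested as a group. RCN1, an inhibitor of the phosphatase calcineurin, had 115 and 127 FPKM in PRP22-OE, against 218 and 278 FPKM in LSM5-OE and 349 and 320 FPKM in WT. Its log2 difference was -1.02 (SE 0.11, adjusted p = 0.0023). PMC1, the vacuolar calcium pump, had 91.3 and 87.5 FPKM in PRP22-OE, against 142 and 145 FPKM in LSM5-OE and 173 and 170 FPKM in WT. CMK2, a calmodulin-dependent kinase, had 448 and 441 FPKM in PRP22-OE, against 689 and 692 FPKM in LSM5-OE and 916 and 932 FPKM in WT. PUN1, a plasma membrane protein, had 760 and 707 FPKM in PRP22-OE, against 1336 and 1306 FPKM in LSM5-OE and 1670 and 1638 FPKM in WT. RCH1, a plasma membrane protein that limits calcium uptake, had 27.2 and 28.2 FPKM in PRP22-OE, against 50.6 and 47.1 FPKM in LSM5-OE and 61.4 and 60.4 FPKM in WT. In these 5 genes the cultures stood in the same order, with PRP22-OE lowest, LSM5-OE between and WT highest. By means this order also held in 172 of the 236 features called lower, so it was not particular to these genes.

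MTR4, the helicase of the nuclear exosome, had 93.3 and 98.2 FPKM in PRP22-OE, against 78.2 and 79.0 FPKM in LSM5-OE and 92.1 and 90.3 FPKM in WT. It was called higher at 0.28 (adjusted p = 0.0147), also outside every list and noticed after the values were seen.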
